A study of Mus musculus with 6 samples.

Results

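Regulators of G protein signalling are a family of proteins, each encoded by an Rgs gene, that were followed here in cultured mouse astrocytes exposed to tumour necrosis factor (TNF). The genes described are Rgs1, Rgs2, Rgs3, Rgs4, Rgs5, Rgs7, Rgs8, Rgs10, Rgs16 and Rgs20. They were listed by name and selected on their log2 signals in TNF against control arrays, which were known when the list was made, so this contrast describes them and does not test them. Of the 10 genes, 9 had a probe set that names only that gene, out of 19926 genes measured; Rgs10, an RGS protein that acts on Gi family subunits, lacked such a probe set and was not analysed here. For genes with several probe sets, the one with the highest mean signal was used.

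Primary astrocytes of C57BL/6J mice received TNF, an inflammatory cytokine, for 24 h at 50 ng/mL, and control cultures were collected at the same time. The RNA was measured on Affymetrix Mouse Gene 1.0 ST arrays, with 1 array for each of 3 control and 3 TNF samples numbered 1 to 3 in both groups. Values are log2 signals after RMA, a method that corrects background, equalises the distributions of the arrays and summarises the probes of a gene; differences are TNF minus control. Signals of different genes come from different probes, so a gap in signal between genes does not measure a gap in RNA. The labels do not say that samples came from separate cultures or animals, so errors and p-values cover the spread among these 6 samples alone, and that spread may be technical.

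A G protein-coupled receptor switches on a G protein by loading its alpha subunit with GTP. RGS proteins speed the hydrolysis of that GTP and so shorten the signal, and they differ in the alpha subunits they act on. The family is sorted into the small R4 proteins, the RZ proteins, the R7 proteins, which work as complexes with the beta subunit Gnb5, and the R12 proteins. Astrocytes carry many receptors of the Gq and Gi classes, whose signals end in calcium release and in lower cyclic AMP.

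Rgs2 and Rgs16 showed the widest differences of the group, in opposite directions, and both lie on chromosome 1. The 250 bases before the annotated transcription start of each are shown because these genes carry the main contrast. They are RefSeq sequences of build GRCm38.p6, given 5′ to 3′ on the strand of the gene, chr1:144004150-144004399 (minus strand) for Rgs2 and chr1:153740103-153740352 (plus strand) for Rgs16. Capitals mark matches, on either strand, to TGACG, the core letters of a cyclic AMP response element, or to a loose kappaB pattern, GGG and CC with any 5 bases between them.
Rgs2: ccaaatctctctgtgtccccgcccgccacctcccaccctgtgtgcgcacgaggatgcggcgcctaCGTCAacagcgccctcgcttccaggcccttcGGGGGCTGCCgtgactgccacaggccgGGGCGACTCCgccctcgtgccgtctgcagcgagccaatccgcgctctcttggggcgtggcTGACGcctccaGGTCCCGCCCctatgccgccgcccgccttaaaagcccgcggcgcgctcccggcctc
Rgs16: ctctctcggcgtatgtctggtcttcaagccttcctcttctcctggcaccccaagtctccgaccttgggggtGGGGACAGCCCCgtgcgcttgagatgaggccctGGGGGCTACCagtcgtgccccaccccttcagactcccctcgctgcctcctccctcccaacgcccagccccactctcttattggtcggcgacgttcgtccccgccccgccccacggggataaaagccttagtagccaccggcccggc
The Rgs2 stretch held 2 matches to TGACG, whose first bases lay 185 and 67 bases before the start, and 3 matches to the kappaB pattern, at 154, 127 and 56 bases. The Rgs16 stretch held no match to TGACG and 4 to the kappaB pattern, at 179, 178, 177 and 146 bases, of which the first 3 overlap each other. TGACG occurred in 17.8% and the kappaB pattern in 45.8% of 32841 promoters of the same length, and a match is a run of letters, not a site shown to be bound. Another motif, TTCNNNGAA, which STAT factors bind, occurred in 7.02% of these promoters and in neither stretch. The 32841 promoters were not matched for base content, and G and C made up 72.4% of the Rgs2 and 66.4% of the Rgs16 stretch. Rgs4, which differed by 0.15, held 2 matches to TGACG, and Rgs7, at -0.27, held 1 to the kappaB pattern. Rgs6, at -0.71, and Rgs17, at -0.52, held 1 kappaB match each. Rgs9, at 0.56, Rgs3, at -0.45, and Rgs5, at 0.11, held neither pattern. Rgs8, at 1.53, held TGACG in 1 promoter and a kappaB match in each of its others. Every promoter of Rgs19, at 1.03, and of Rgs12, at -0.07, held a kappaB match, and 1 of Rgs12 also held TGACG. Rgs13, at 0.04, held 1 kappaB match, and Rgs21, at -0.03, held 1 match to TGACG. A link between matches and differences was not tested.

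Astrocyte markers differed in signal in controls, with Gfap at 11.91 ± 0.44 (mean ± SD of log2 signal, n = 3) and Slc1a3 at 12.72 ± 0.07. Gjb6 was at 5.23 ± 0.21 and S100b at 6.59 ± 0.13. Markers of other cell types also ranged widely in controls. The mural markers Acta2 and Higd1b were at 13.37 and 5.71, and the neuron markers Stmn2 and Snap25 at 12.09 and 6.12. Such signals come from different probes and do not measure the purity of the cultures. Of 11 astrocyte markers 3 fell with TNF and none rose at an adjusted p under 0.05 with limma, against 7.20% of all genes called. The mean log2 signal of the 11 ran from 10.47 to 10.77 in controls and from 10.13 to 10.41 with TNF. Gfap differed by -0.51 (adjusted p = 0.42, and 0.00356 with the replicate number as a block), and Aqp4 by 0.60 (adjusted p = 0.0718, and 0.0069 with the block). With the block 2 astrocyte markers were higher and 6 lower, against 21.5% of all genes called. S100b was among the lower (limma adjusted p = 0.27 without and 0.0364 with the block). None of 16 microglia markers was called without the block. With the block 3 were called higher, Cd68 (adjusted p = 0.0307), Itgam (0.0137) and C1qb (0.0205), beside the same 21.5% of all genes. The mean of the microglia markers followed the replicate number, at 7.04, 6.38 and 7.75 in controls 1, 2 and 3 and at 7.34, 6.51 and 7.73 on the matching TNF arrays. None of 7 lymphocyte and 5 fibroblast markers was called, and 1 each of 12 mural, 10 neuron, 7 oligodendrocyte and 7 endothelial markers fell. With the block 3 mural and 2 neuron markers were lower and 1 neuron marker was higher, and nothing is read from these counts. Stmn2 was among the lower neuron markers (limma adjusted p = 0.25 without and 0.0398 with the block). No detection calls were used, so signals below about 6.16, the lower quartile of the gene means, may lie near background.

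Over all 19926 genes, limma called 1434 at an adjusted p under 0.05, 771 higher and 663 lower with TNF. Of the 9 measured members 3 were called, against 7.20% of all genes: Rgs16 rose, as did 3.87% of all genes, and Rgs2 and Rgs20 fell, as did 3.33%. The members were listed with this contrast in view, and nothing is read from their share. The control and TNF values did not overlap in 5 of the 9, which held for 24.0% of all genes. With the replicate number as a block 5 members were called, 2 higher and 3 lower, against 21.5% of all genes.

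**Figure D1:**
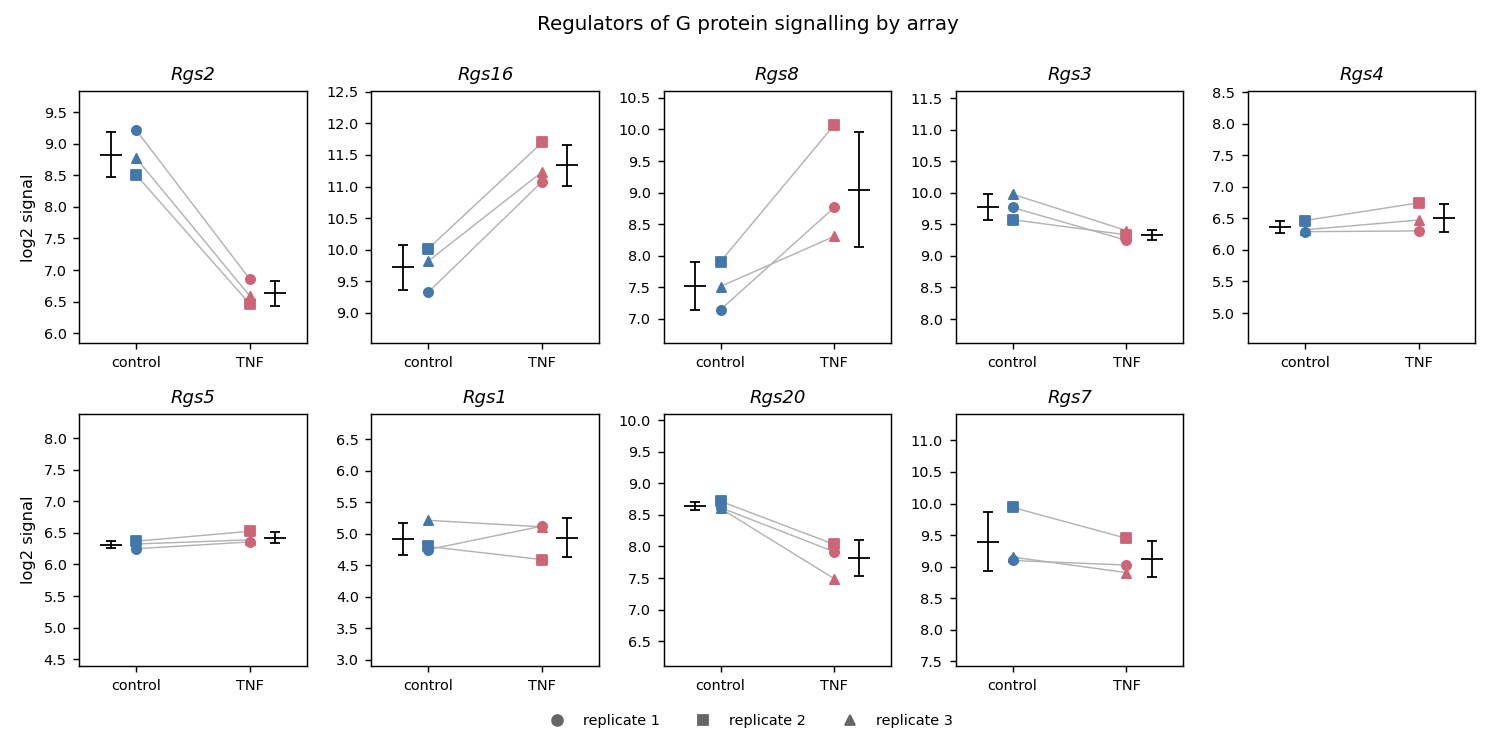
Log2 signal of the 9 measured members on each array, control (blue) and TNF (red), with grey lines joining arrays of the same replicate number and black bars giving mean ± SD (n = 3). Every panel spans 4 log2 units; Rgs2 lies lower and Rgs16 and Rgs8 lie higher on all 3 TNF arrays.

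Rgs2, an R4 protein that preferentially shuts off Gq signals, fell on every TNF array. Its log2 signal was 9.21, 8.51 and 8.77 in controls 1, 2 and 3, and TNF samples 1, 2 and 3 read 6.85, 6.46 and 6.58. The lowest control stood well above the highest TNF sample, and the 3 same-number differences, -2.36, -2.05 and -2.19, lay close together. The mean went from 8.83 ± 0.36 to 6.63 ± 0.20 (n = 3 per group), a difference of -2.20 (standard error, SE, 0.20) that corresponds to a 4.59-fold lower signal. In RNA of whole cultures, fewer cells that make a transcript and less transcript per cell cannot be told apart.

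Rgs16, an R4 protein that acts on Gi and Gq subunits, rose on every TNF array. Controls 1, 2 and 3 read 9.33, 10.02 and 9.82, and the TNF samples 11.08, 11.70 and 11.23. The order of the arrays was the same in both groups, with number 2 highest and number 1 lowest, and the groups did not overlap. The difference was 1.62 (SE 0.22), or 3.06-fold higher, and was 1.75, 1.68 and 1.41 within numbers 1, 2 and 3. The call was lost without replicate number 3 of both groups, where the difference remained positive at 1.72.

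Rgs8, an R4 protein described mainly in neurons and acting on Gi family subunits, is the chromosomal neighbour of Rgs16, with no protein-coding gene annotated between them. Controls 1, 2 and 3 read 7.14, 7.91 and 7.51, against 8.76, 10.07 and 8.31 on the TNF arrays. All TNF values lay above all controls, but they were widely spread, with TNF 2 more than 1 log2 unit above the others. The difference was 1.53 (SE 0.42), or 2.88-fold higher, and it was not called. It was called with the replicate block, and also without TNF 3, where it was 1.90. Without TNF 2 it was 1.02 and was not called.

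Rgs3, an R4 protein acting on Gi and Gq subunits, had 2 probe sets that gave different sizes. The probe set of higher mean read 9.77, 9.57 and 9.98 in controls 1, 2 and 3 and 9.25, 9.33 and 9.40 with TNF, a difference of -0.45 (SE 0.13) that was not called but was called with the replicate block. On the other probe set the controls read 8.82, 8.33 and 8.63 and the TNF samples 7.73, 7.42 and 7.77, a difference of -0.95, which was called where that probe set stood for the gene. Both probe sets were lower with TNF and neither had overlapping groups.

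Rgs4, Rgs5 and Rgs1, the remaining R4 members, were not called with or without the block. Rgs4, which acts on Gi and Gq subunits and is abundant in neurons, ranged from 6.29 to 6.47 in controls and from 6.30 to 6.75 with TNF, a difference of 0.15 (SE 0.14). Rgs5, widely used as a pericyte marker, ranged from 6.25 to 6.37 and from 6.36 to 6.53, a difference of 0.11 (SE 0.11). For both genes the groups overlapped, and all 3 same-number differences were positive, from 0.01 to 0.28 for Rgs4 and from 0.07 to 0.16 for Rgs5. Rgs1, which dampens chemokine receptor signals in lymphocytes, read 4.75, 4.80 and 5.21 in controls and 5.12, 4.59 and 5.11 with TNF, a dim signal whose same-number differences had both signs. The proteins of Rgs4, Rgs5 and Rgs16 are broken down through the arginine branch of the N-degron pathway, which destroys proteins by their first residues. Of 6 genes of that branch and the methionine aminopeptidases (Ado, Ate1, Ubr1, Ubr2, Metap1 and Metap2) limma called 0, and 0 had an unadjusted p under 0.05, with differences from -0.14 to 0.15. Of all 19926 genes limma called 7.20%, and 1824 were higher and 1938 lower at an unadjusted p under 0.05.

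Rgs20, an RZ protein that acts on the alpha subunit Gnaz, fell. Controls 1, 2 and 3 read 8.62, 8.72 and 8.60, against 7.92, 8.03 and 7.49 on the TNF arrays. The controls lay within a narrow band above all TNF values, and TNF 3 was the lowest. The difference was -0.83 (SE 0.15), or 1.78-fold lower. The call was lost without control 1, without control 2 and without control 3, and without replicate number 1 or 2 of both groups, while the difference stayed between -0.67 and -0.94 in all alternatives run.

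Rgs7, the R7 member, acts on Go subunits together with Gnb5. It read 9.10, 9.94 and 9.15 in controls 1, 2 and 3 and 9.03, 9.45 and 8.91 with TNF. Sample 2 was the highest in both groups and the groups overlapped. The difference of -0.27 (SE 0.25) was not called, and without control 2 it was 0.0023.

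The members' genes also fall into chromosomal neighbourhoods. Gene order was not used to choose the members, but their differences, repeated here, were known when they were chosen. In the RefSeq annotation of GRCm38.p6, Rgs2, Rgs13, Rgs1, Rgs21 and Rgs18 follow each other on chromosome 1 with no other protein-coding gene between them, as do Rgs8 and Rgs16, and Rgs5 and Rgs4. In the first of these neighbourhoods Rgs2 differed by -2.20, whereas Rgs13, Rgs1, Rgs21 and Rgs18, all with group means between 3.79 and 4.94, differed by -0.03 to 0.11. Those 4 genes lie below about 6.16, the lower quartile of the gene means, where a fall like that of Rgs2 could be missed. Rgs8 and Rgs16 were both higher with TNF on every array, at 1.53 and 1.62, and Rgs5 and Rgs4 were at 0.11 and 0.15. Differences between neighbourhoods were not tested.

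The 11 other Rgs genes, the remainder of the family after the members were listed, were all measured. Limma called 3 of them, against 7.20% of all genes: Rgs19 and Rgs9 rose and Rgs6 fell. Their median difference was -0.03, beside -0.0033 over all genes tested. The groups did not overlap in 4 of the 11, against 24.0% of all genes.

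**Figure D2:**
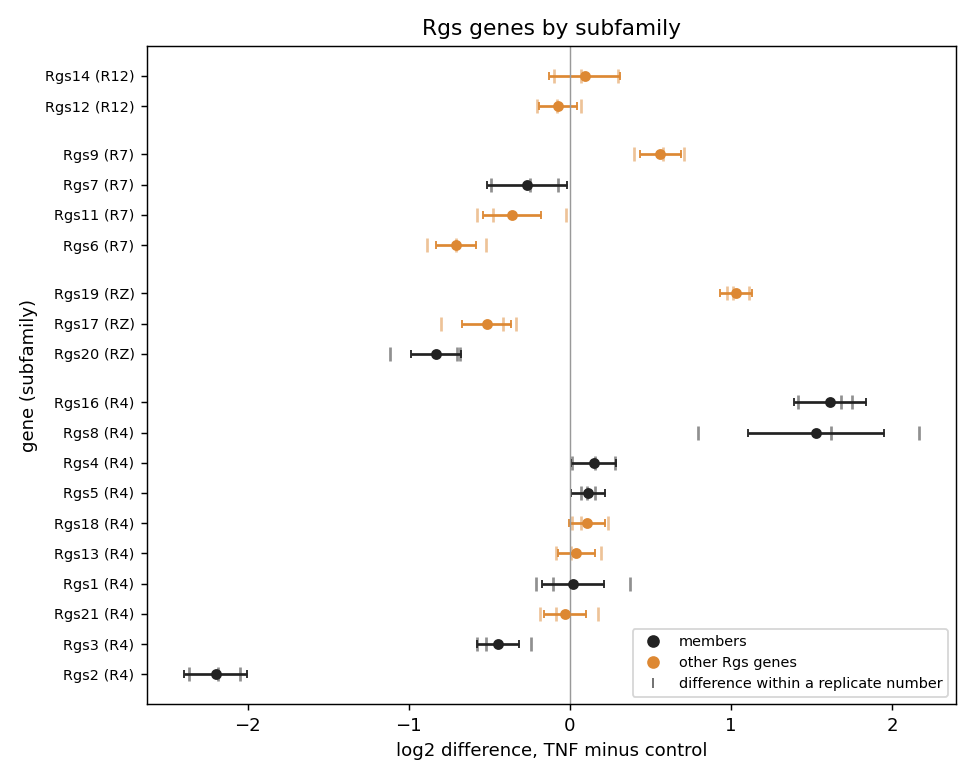
Log2 difference, TNF minus control, of the Rgs genes sorted by subfamily (Rgs22, which belongs to none of these subfamilies, is left out), for the listed members (black) and the other genes (orange). Points with bars are the difference ± SE over 3 arrays per group, and ticks are the differences within each replicate number; Rgs16 and Rgs8 stand at the positive end of the R4 genes and Rgs2 at the negative end, and Rgs19 stands opposite to Rgs17 and Rgs20 within the RZ genes.

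Rgs19, an RZ protein also known as GAIP that acts on Gi family subunits, rose with little spread. It read 8.80, 8.91 and 8.76 in controls and 9.81, 9.88 and 9.87 with TNF. The spread within each group was far smaller than the gap between them. The difference was 1.03 (SE 0.10, limma adjusted p = 9.75e-04), or 2.04-fold higher, and the adjusted p stayed at or below 0.00933 in the 6 fits without 1 array. Rgs17, the remaining RZ gene, which like Rgs20 acts on Gnaz, read 7.29, 7.65 and 7.67 in controls and 6.95, 7.24 and 6.87 with TNF. Its groups did not overlap, but the difference of -0.52 (SE 0.15, limma adjusted p = 0.0998) did not pass; with the replicate block it did (adjusted p = 0.0137).

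Among the R7 genes, Rgs6 and Rgs9 were called in opposite directions. Rgs6 read 9.01, 9.27 and 9.37 in controls and 8.49, 8.56 and 8.48 with TNF, a difference of -0.71 (SE 0.12, limma adjusted p = 0.0142). Rgs9, best known for ending light responses in photoreceptors and for dopamine signalling in the striatum, read 8.15, 7.82 and 7.90 in controls and 8.54, 8.40 and 8.61 with TNF, a difference of 0.56 (SE 0.13, limma adjusted p = 0.039). Neither gene had overlapping groups. Neither call held in every fit. The call of Rgs6 was lost without control 2 (adjusted p = 0.0554), control 3 (0.0544) or TNF 1 (0.0504), and without replicate number 1 (0.0811), 2 (0.153) or 3 (0.0885) of both groups. That of Rgs9 was kept without control 1 (adjusted p = 0.0499) and lost in the other 5 fits without 1 array (0.0771 to 0.131), and without number 1 (0.154), 2 (0.221) or 3 (0.185) of both groups.

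Rgs11, another R7 gene, differed by -0.36 (SE 0.18, limma adjusted p = 0.355): TNF 1 and TNF 2 at 6.35 and 6.43 lay below the controls, which ran from 6.91 to 7.04, and TNF 3 at 7.01 lay among them. Without TNF 3 it was called as lower (adjusted p = 0.0329). Gnb5, the beta subunit that stabilises the R7 proteins, was 10.18 ± 0.10 and 10.11 ± 0.08 (n = 3 per group, difference -0.07, limma adjusted p = 0.876). The R12 genes Rgs12 and Rgs14, which also carry motifs that bind inactive Gi subunits, differed by -0.07 (SE 0.12) and 0.09 (SE 0.22). Rgs13, Rgs18, Rgs21 and Rgs22 had differences between -0.03 and 0.11, and none of these 6 genes was called.

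Of the wider G protein pathway 103 of 111 listed genes were measured. Limma called 9 of the 103, 5 higher and 4 lower, against 7.20% of all genes, with a median difference of -0.02 beside -0.0033. With the replicate block 28 were called, 10 higher and 18 lower, against 21.5% of all genes. Fits without 1 array called from 3 of the pathway genes, without TNF 2, to 7, without TNF 1; the others gave 4 without control 3, 5 without control 1, 5 without TNF 3 and 6 without control 2. Without replicate number 1, 2 or 3 of both groups there were 3, 1 and 5.

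Receptors, the largest of the 7 lists, had 5 of 25 genes called, 2 higher and 3 lower, against 7.20% of all genes. The lists were chosen with earlier results known, so nothing is read from this share. Sstr2, a Gi-coupled somatostatin receptor, read 9.89, 9.38 and 9.99 in controls and 6.76, 6.64 and 7.41 with TNF, a difference of -2.81 (SE 0.24, limma adjusted p = 4.75e-04). Every TNF value lay below every control. Bdkrb1, the inducible bradykinin receptor that couples to Gq, rose 2.02-fold, to 7.63 ± 0.12 against 6.61 ± 0.27 in controls (limma adjusted p = 0.00795). S1pr3, a sphingosine 1-phosphate receptor, rose 2.04-fold to 12.84 ± 0.03 (limma adjusted p = 0.0182). The other receptors called were Cxcr4 at -1.68 (limma adjusted p = 0.0284) and the Gq-coupled P2ry1 at -0.82 (0.0194), both named after their values were seen. The calls of Sstr2 and Bdkrb1 held in all 6 fits without 1 array, but Bdkrb1 was lost without replicate number 1 (adjusted p = 0.0923) or 2 (0.119) of both groups. S1pr3 was lost without control 3 (adjusted p = 0.0505), TNF 1 (0.0592) or TNF 2 (0.0582). P2ry1 was lost without control 1 (adjusted p = 0.0816), control 2 (0.0702), TNF 2 (0.0747) or TNF 3 (0.0504), and Cxcr4 without control 3 (0.0686), TNF 2 (0.0965) or TNF 3 (0.0738). With the replicate block 4 receptors were higher and 6 lower, against 21.5% of all genes called. Among the lower was Ednrb, an endothelin receptor, at -1.60 (adjusted p = 0.0509 without and 1.48e-04 with the block).

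**Figure D3:**
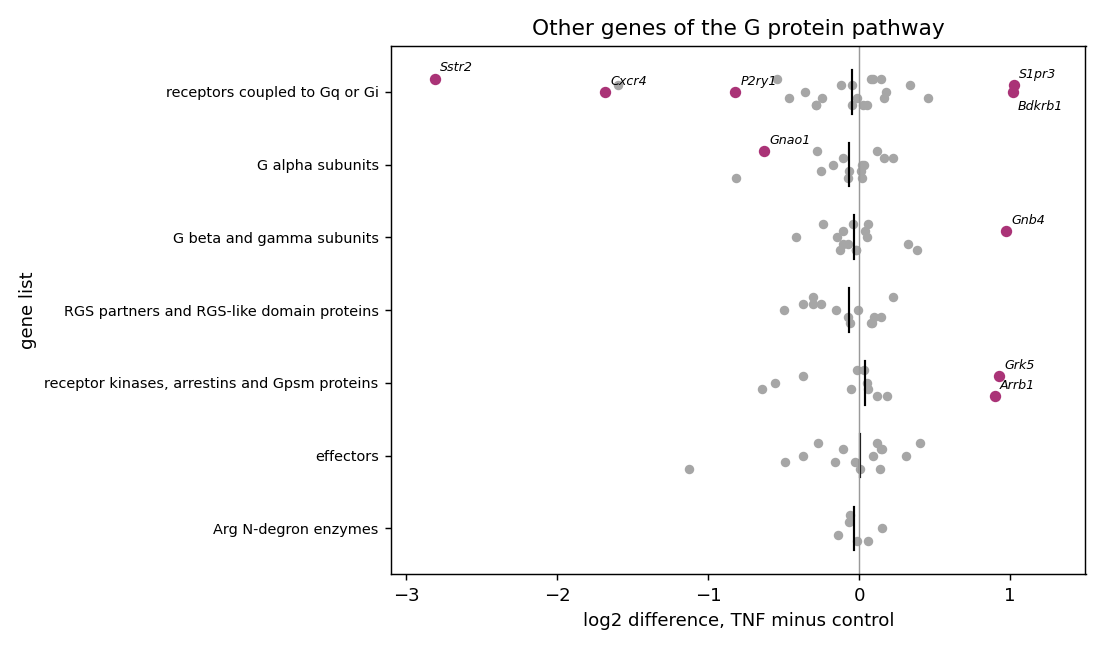
Log2 difference, TNF minus control, of each measured gene in 7 lists of the G protein pathway; purple points with names passed limma at an adjusted p under 0.05, grey points did not, and the black bar is the median of the list. Most points lie near 0, and the receptor list holds the widest range, from Sstr2 at -2.81 to S1pr3 at 1.03.

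Of the alpha subunits on which RGS proteins act, 1 of 15 was called, against 7.20% of all genes. Gnao1, the Go subunit, read 12.18, 12.53 and 12.46 in controls and 11.63, 11.92 and 11.73 with TNF, a difference of -0.63 (SE 0.14, limma adjusted p = 0.0341). Its groups did not overlap, but of the fits that left out 1 array only the one without control 1 kept the call (adjusted p = 0.0423, against 0.0569 to 0.117 in the other 5). The median difference of the alpha subunits was -0.07. With the block Gnai1, a Gi subunit, was also called lower, at -0.82 (adjusted p = 0.203 without and 0.00247 with the block). Among 16 beta and gamma subunits Gnb4 rose 1.96-fold, to 7.57 ± 0.36 against 6.60 ± 0.17 in controls (limma adjusted p = 0.0219), and no other was called. The call of Gnb4 was lost without control 1 (adjusted p = 0.0782), control 3 (0.0776), TNF 1 (0.0633) or TNF 2 (0.0807). With the block 3 beta and gamma subunits were higher and 1 lower, against 21.5% of all genes called.

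Of 12 receptor kinases, arrestins and related proteins 2 rose and none fell without the block, against 7.20% of all genes called. With the block, which called 21.5% of all genes, Grk3 (adjusted p = 0.0037), Grk4 (0.00652) and Gpsm2 (0.0173) were also called, as lower. Arrb1, the arrestin that uncouples receptors from G proteins, read 8.97, 8.73 and 9.01 in controls and 10.10, 9.47 and 9.84 with TNF, or 1.86-fold higher (difference 0.90, SE 0.17, limma adjusted p = 0.0212). Grk5, a kinase that marks active receptors for arrestin, rose 1.90-fold (difference 0.92, SE 0.21, limma adjusted p = 0.0385). Both genes had every TNF value above every control. Arrb1 kept its call without TNF 2 and lost it in the other 5 fits without 1 array (adjusted p = 0.0528 to 0.0757). Grk5 lost it without control 1 (adjusted p = 0.134), control 3 (0.119), TNF 1 (0.113) or TNF 2 (0.123). Limma called 0 of 15 effectors and 0 of 14 RGS partners and proteins with RGS-like domains. At an unadjusted p under 0.05 there were 2 higher and 3 lower effectors, and 0 higher and 3 lower partners. Of all 19926 genes 1824 were higher and 1938 lower at that threshold, and nothing is read from these counts. With the replicate block 1 effector was higher and 3 lower, among them Adcy1, an adenylyl cyclase, at -1.13 (adjusted p = 0.0631 without and 0.00167 with the block), and 3 partners were lower, among them Snx14 (0.074 and 0.016). Without replicate number 1, 2 or 3 of both groups the calls of Gnao1, Arrb1, Grk5 and S1pr3 were lost in each fit (adjusted p = 0.0549 to 0.327), those of Gnb4 and P2ry1 without number 1 or 2 (0.109 to 0.215) and that of Cxcr4 without number 2 (0.073) or 3 (0.183). Genes named only for the blocked fit were chosen after their values were seen.

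The genes most like Rgs16 and Rgs2 over the 6 arrays were found by Pearson's correlation of log2 signals, as a description in which all genes share the treatment and the replicate numbers. For Rgs16 these were Eif2ak2, the RNA-sensing kinase PKR (r = 0.998), Mitd1 (0.997) and Tmem184b (0.997). For Rgs2 they were Pygb, the brain glycogen phosphorylase (r = 0.999), Id4, an inhibitor of differentiation (0.998), and Aldoc, aldolase C (0.996). Such likeness was common: 384 genes had r above 0.95 with Rgs16 and 337 with Rgs2.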

How the data were processed

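The authors deposited log2 signals of 35544 probe sets on 6 arrays (2.04 to 14.37, array medians 7.14 to 7.18). Per the submitters' processing notes RMA and limma were used (versions not given in the sources used here). That the logarithm has base 2 was inferred from the range. The platform annotation gave exactly 1 symbol to 21777 probe sets, more than 1 to 1621 and no symbol to 12146. Of the first kind 21686 matched RefSeq genes by Entrez number. The probe set of highest mean was kept for 999 genes with more than 1, leaving 19926 genes. Over these genes the arrays of replicate number 3 had a narrower spread of signals after RMA. Their lower quartiles were 6.27 in control and 6.33 with TNF, against 6.01 to 6.09 on the other arrays. Their upper quartiles were 9.17 and 9.16, against 9.29 to 9.33.

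TNF was compared with control by the two-sided moderated test of limma 3.58.1 (R 4.3.3) with Benjamini-Hochberg adjustment over all genes, 4 residual and 3.70 prior degrees of freedom and a median SE of 0.14. In 5 simulated runs with 200 of 19926 genes changed it called 56.4% of genes moved by 1 log2 unit and 96.8% of those moved by 2. Of genes moved by 0.5 it called 11.2%. The runs gave every array independent noise and changed fewer genes than the 1434 called in the data. Their shares therefore need not hold for these data. After subtracting group means, samples of replicate numbers 1, 2 and 3 correlated across groups at 0.55, 0.65 and 0.75, so the values pair the samples; the deposited descriptions of same-numbered samples also begin with the same code, which the labels do not explain. The main fit ignores this pairing, because the submitters' notes state no block, and all SEs come from it. A blocked fit is given beside the genes and lists whose calls it changed. It called 4289 genes against 1434, so a gene not called by the main fit may still differ within pairs. The number of arrays limits the precision.

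The members and the 7 pathway and 8 marker lists were chosen with earlier results of these data known. Named genes were all Rgs genes, up to 3 called genes of smallest p per pathway list, the 3 genes most like the members of largest positive and negative difference, and Gfap, Slc1a3 and Aqp4. Outside this rule Gnb5, the N-degron genes, Gjb6, S100b, Glul, Gja1, Acta2, Higd1b, Stmn2, Snap25 and genes marked as such were named. Motifs were searched in RefSeq promoters, with 8 of the 10 members matched by symbol. Protein sequences were not used here. Tables and plots were made in Python 3.11.15 (pandas 2.3.3; numpy 2.4.6; matplotlib 3.10.9).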

Additional observations from a re-analysis of the deposited data

How the results depend on the processing

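Rgs2 was called as lower in all 18 fits run besides the one reported, with differences from -2.36 to -2.01, and Rgs16 as higher in 17 of 18, from 1.42 to 1.81. Rgs20 was called in 13 of 18, Rgs3 in 6 and Rgs8 in 3. Rgs1, Rgs4 and Rgs5 were called in none of 17 fits and Rgs7 in none of 18. These fits reuse the arrays and the contrast on which the members were selected. The tallies therefore describe dependence on processing and do not test the members. With the replicate block 4289 genes, 28 pathway genes and 5 members were called; the block leaves each difference as it was, and it added Rgs3 and Rgs8 among the members and only Rgs17 among the other Rgs genes, and it ended no call of a gene named here. With array weights 2127 genes, 16 pathway genes and 5 members were called, and Rgs11 passed as lower (adjusted p = 0.0487). At an adjusted p under 0.01 there were 581 genes, 1 other Rgs gene and 2 pathway genes, and at an adjusted p under 0.05 with a log2 difference of 1 or more in size there were 565, 1 and 4. Without replicate number 3 of both groups there were 632, 1 and 5. Without number 1 there were 390, 1 and 3, and without number 2 there were 407, 1 and 1; the fits without number 1 or 2 were added after the data were seen. Leaving out 1 array at a time gave 780 to 1124 genes, 1 to 3 other Rgs genes, 3 to 7 pathway genes and 2 to 4 members. Wherever only 1 other Rgs gene was called, it was Rgs19. Counts under median centring, quantile normalization of the genes tested, the filter on dim genes, trend and robust variance and other choices of probe set stayed within 1.5 times those reported. Array signals compress large folds, and dim genes such as Rgs1, Rgs13, Rgs18 and Rgs21 may lie near background, where a difference could be missed.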
